A study of Homo sapiens with 12 samples.

Results

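The genes described here run polyamine metabolism: 10 genes, picked by gene symbol from the 27514 rows of the deposited expression table, all of which were found. Of these, 4 encode the enzymes of synthesis (ODC1, SRM, SMS, AMD1), 3 the enzymes of breakdown (SAT1, SMOX, PAOX) and 3 the antizyme system that controls ODC (OAZ1, OAZ2, AZIN1). RNA was sequenced from IMR32, an established human neuroblastoma line that carries an amplified MYCN gene, in 4 groups of 3 samples taken 72 h after Nucleofector delivery of siRNA. The groups received a control siRNA (siCTR in the labels, siCtrl here), an siRNA against MYCN (siMYCN_2, here siMYCN), an siRNA against HAND2 (siHAND2_3, here siHAND2), or the pair labelled siM2+siH2_3 (here the combined knockdown). Each arm was labelled with 1 siRNA or 1 pair, in 1 cell line, and nothing in the labels says whether the 3 samples of a group came from separate cultures, so p-values measure the spread between these samples. The design asks what each transcription factor sustains and what happens when both are lowered.

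Polyamines (putrescine, spermidine and spermine) are small positively charged molecules that bind nucleic acids and are needed for growth. ODC makes putrescine from ornithine, AMD1 supplies the aminopropyl donor from S-adenosylmethionine, and spermidine synthase (SRM) and spermine synthase (SMS) add the aminopropyl groups. Antizymes bind ODC and send it to the proteasome, and the antizyme inhibitor AZIN1 competes for that binding. ODC1 is a long known MYC target through E-boxes in its first intron, and MYCN-amplified neuroblastoma is known for high ODC1.

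In the deposited values, the 4 synthesis genes fell together in the combined knockdown, ODC1 to 34.8% of its control level, SRM to 41.0%, AMD1 to 41.4% and SMS to 51.9%, on a scale where 50.1% of all tested genes were called lower and the median log2 change of all genes was −0.28. On rescaled values, where 33.0% were called lower and that median was 0.04, the 4 were called lower too, at 44.1%, 52.3%, 53.1% and 65.7%. The single knockdowns differed: ODC1 and AMD1 fell in both, SRM fell with the MYCN siRNA and was not called with the HAND2 siRNA, and OAZ1, the main antizyme gene, showed the opposite pattern. None of the 3 breakdown genes was called lower against siCtrl in any knockdown, though SAT1 in siHAND2 crossed the threshold under other settings given with its values. PAOX rose with the MYCN siRNA and in the combined knockdown, from a siCtrl level below the minimum set for testing.

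The E-box CACGTG, the letters MYC proteins are best known to bind, is printed here as it occurs in or before ODC1 and SRM, which held it among the 7 genes with a promoter window at hand. Capitals mark the motif. Each run is read 5′ to 3′ on the gene's own strand, here the minus strand, in GRCh37. Both ODC1 runs lie in the first intron of the canonical transcript, chr2:10585391-10588246, and the first begins nearer the start of the gene.
ODC1 chr2:10588150-10588179: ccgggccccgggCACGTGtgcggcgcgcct
ODC1 chr2:10588116-10588145: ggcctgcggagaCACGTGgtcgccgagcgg
SRM chr1:11120093-11120325, the 233 bases before the gene as the table places it: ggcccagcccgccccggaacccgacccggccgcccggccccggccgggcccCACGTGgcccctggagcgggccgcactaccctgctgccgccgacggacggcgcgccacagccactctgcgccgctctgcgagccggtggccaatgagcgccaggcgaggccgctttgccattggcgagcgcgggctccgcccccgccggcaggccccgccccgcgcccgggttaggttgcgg

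The first letters of the 2 ODC1 motifs lie 34 bases apart. Among 10188 GENCODE first introns at least as long as that of ODC1 (2856 bases), 27.2% held 1 or more CACGTG in their first 2856 bases and 5.41% held 2 or more. RefSeq promoter windows, 250 bases before to 50 after a start, were at hand for 7 of the 10 genes (GRCh38.p14, placed in GRCh37 by exact match), and not for SMOX, PAOX and AZIN1. CACGTG, which reads the same on both strands, was in windows of ODC1 and SRM and in 8.77% of the 27305 genes with a window. The ODC1 window that held it begins inside the gene and covers the intron sites printed above. The motif CATCTG, or CAGATG on the other strand, an E-box form used by HAND proteins with their partners, was in the OAZ2 window alone among the 7 and in 17.5% of all genes. These are letter matches and no binding was measured.

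Depth, estimated from the step between low values, ranged from 31.6 to 64.2 M reads per sample. Values are CPM, reads scaled to the library total, and the share of reads lying in the listed genes fell from 65.1% ± 0.74 (SD, n = 3) in siCtrl to 62.4% ± 0.98, 59.4% ± 2.39 and 51.4% ± 7.04 in siMYCN, siHAND2 and the combined knockdown, whose replicates 1, 2 and 3 stood at 58.4%, 51.4% and 44.3%. Over all 12680 genes tested, the median log2 change was 0.01 for siMYCN, −0.14 for siHAND2 and −0.28 for the combined knockdown. The relation of these medians to the falling share was not tested. Changes of the 10 genes against siCtrl are therefore given on the deposited scale and on rescaled values, in which each library was brought to a common median level and the same medians were 0.01, 0.01 and 0.04. Log2 changes are of CPM + 1, called where limma's Benjamini-Hochberg adjusted p over all tested genes was under 0.05. Of the targeted genes, MYCN stood at 67.5% of its siCtrl mean with its own siRNA, 84.1% with the HAND2 siRNA and 47.7% in the combined knockdown, and HAND2 at 136%, 26.0% and 30.7%. On rescaled values MYCN stood at 68.0%, 93.9% and 61.0%, and HAND2 at 137%, 29.1% and 39.2%. Neuroblastoma markers summed to between 502 and 780 CPM in every sample, with 7 of 8 at a mean of 1 CPM or more, though PHOX2A among them went from 62.4 to 72.3 CPM in siCtrl to 111 to 124 with the MYCN siRNA, 15.4 to 17.2 with the HAND2 siRNA and 20.6 to 34.4 with both. Of the 5 fibroblast markers, 1 reached that mean, and their sum was 7.20 to 9.14 CPM in siCtrl, 6.31 to 7.36 in siMYCN, 1.29 to 1.99 with the HAND2 siRNA and 0.975 to 1.28 with both. The 4 Schwann cell markers, 1 at a mean of 1 CPM or more, summed to 1.45 to 1.58 CPM in siCtrl, 2.56 to 3.21 in siMYCN, 1.87 to 2.21 with the HAND2 siRNA and 2.29 to 3.04 with both, and the 4 immune markers to under 1 CPM in every sample. Their part in the results was not tested.

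Per kilobase of exon in siCtrl, ODC1 stood highest of the 10 at 113 ± 3.39 CPM per kb (SD, n = 3). SMS (70.9 ± 2.14) and OAZ1 (69.6 ± 4.36) followed with overlapping samples, then AZIN1 at 43.8 ± 1.14, AMD1 at 15.6 ± 0.57 and SRM at 13.4 ± 0.41. OAZ2 was at 5.05 ± 0.24 CPM per kb, SMOX at 2.23 ± 0.09 and SAT1 at 1.23 ± 0.10, and PAOX was lowest at 0.402 ± 0.091. Apart from SMS and OAZ1, no neighbours in this order overlapped. Lengths are the union of annotated exons, so a gene with a long rarely used exon reads low.

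**Figure D1:**
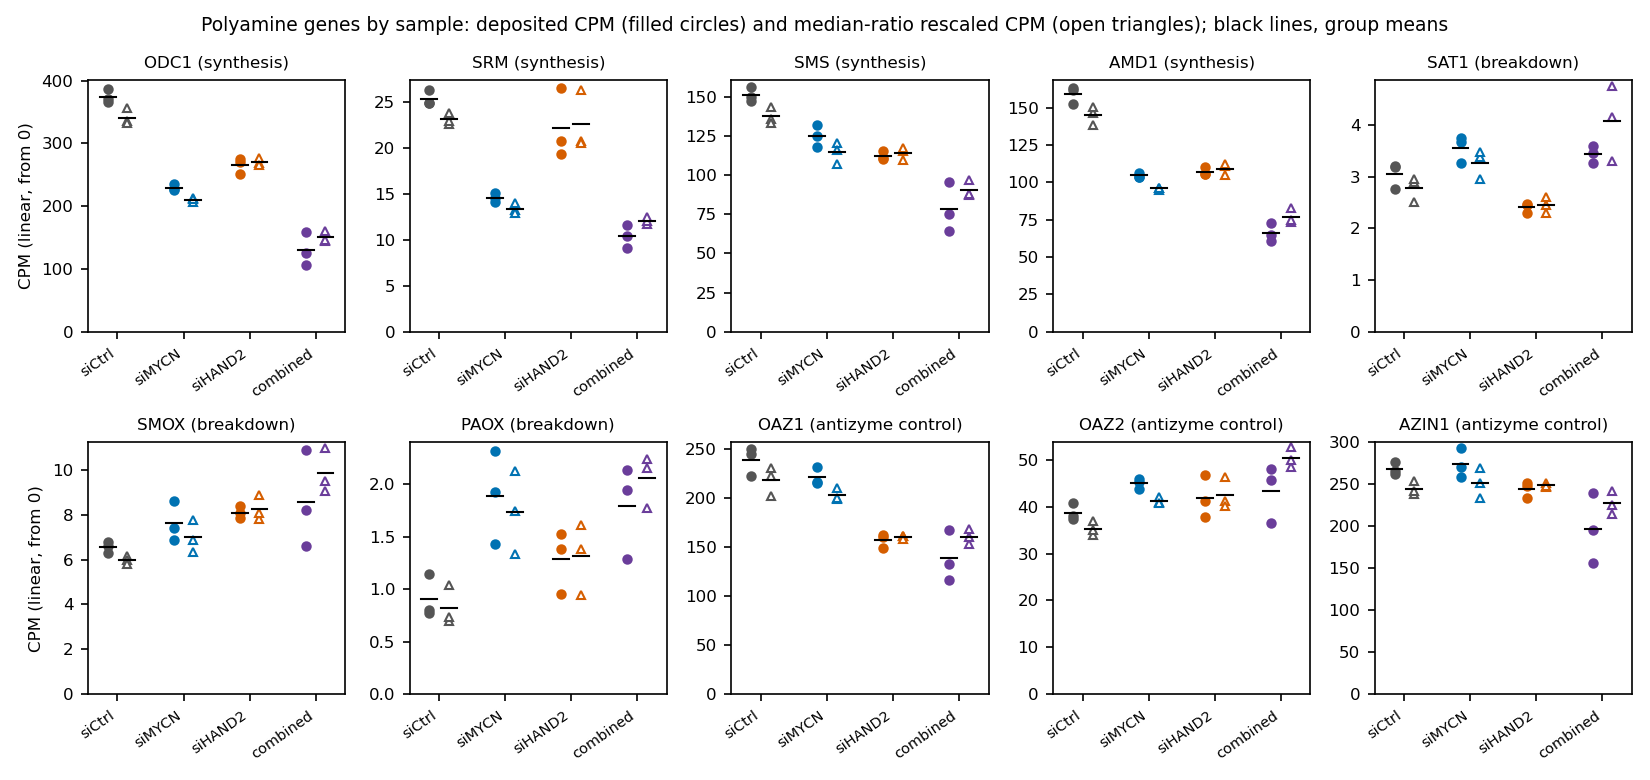
Deposited CPM (filled circles) and rescaled CPM (open triangles) of the 10 genes in each sample, on linear axes from 0, with black lines at group means. The synthesis genes ODC1, SRM, SMS and AMD1 are lowest in the combined knockdown on both scales, and the spread of its 3 samples is narrower after rescaling for all 4.

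ODC1 (chr2:10580497-10588681), which encodes the enzyme that starts the pathway, measured 370.3, 366 and 387 CPM in the siCtrl samples. With the MYCN siRNA it measured 235, 226 and 228 CPM, with the HAND2 siRNA 271, 276 and 252 CPM, and in the combined knockdown 159, 126 and 107 CPM. The 4 groups did not overlap. ODC1 fell by 0.70 (SE 0.12, limma adjusted p 9.7e-05) with the MYCN siRNA, by 0.49 (limma adjusted p 0.0024) with the HAND2 siRNA and by 1.53 (limma adjusted p 5.5e-11) in the combined knockdown, on the log2 scale. The rescaled log2 changes were −0.69, −0.33 and −1.18, all called. A small nucleolar RNA gene, SNORA80B, lies within ODC1 on the same strand, with a mean of 11.7 CPM of its own.

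AMD1 (chr6:111135824-111216916) encodes S-adenosylmethionine decarboxylase. It measured 162, 153 and 163 CPM in siCtrl, 106, 104 and 104 CPM in siMYCN, 106, 110.4 and 106 CPM with the HAND2 siRNA, and 73.1, 64.6 and 60.5 CPM with both siRNAs. The single knockdowns overlapped each other and lay apart from both other groups. AMD1 fell by 0.60 (SE 0.11, limma adjusted p 1.1e-04) in siMYCN, by 0.57 (limma adjusted p 1.4e-04) in siHAND2 and by 1.26 (limma adjusted p 1.5e-10) in the combined knockdown, and the rescaled log2 changes were −0.59, −0.41 and −0.91, all called. The AMD1 row overlaps CDK19 on the other strand (mean 50.6 CPM), and whether the counting used strand is not given in the sources used here.

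SRM (chr1:11114649-11120092), spermidine synthase, was on deposited values the synthesis gene called different between the single knockdowns. It measured 24.95, 26.3 and 24.9 CPM in siCtrl, 14.6, 14.1 and 15.1 CPM in siMYCN, and 26.6, 20.8 and 19.4 CPM in siHAND2. In the combined knockdown it measured 11.7, 10.4 and 9.12 CPM, below every other sample. SRM fell by 0.76 (SE 0.12, limma adjusted p 2.1e-05) in siMYCN and by 1.22 (limma adjusted p 1.7e-09) in the combined knockdown, and by 0.75 and 0.88 on rescaled values, both called. With the HAND2 siRNA the log2 change was −0.20 (SE 0.12, limma adjusted p 0.19) and −0.04 rescaled, and replicate 1 of that group lay above all siCtrl samples while the other two lay below them. Without replicate 1 the deposited log2 change was −0.32 (limma adjusted p 0.045).

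SMS (chrX:21958691-22012956), spermine synthase, had the smallest change of the 4 in siMYCN and in the combined knockdown, while SRM had it in siHAND2. SMS measured 150, 147 and 156 CPM in siCtrl, 118, 132 and 125 CPM in siMYCN, 110.5, 115 and 111 CPM with the HAND2 siRNA, and 95.7, 75.3 and 64.0 CPM with both siRNAs. All 9 knockdown samples lay under the siCtrl range. SMS fell by 0.42 (SE 0.12, limma adjusted p 0.0074) in siHAND2 and by 0.96 (limma adjusted p 2.1e-07) in the combined knockdown. Its log2 change of −0.27 in siMYCN was not called on the deposited scale (limma adjusted p 0.091) and was called on the rescaled one (−0.26, limma adjusted p 0.0026), as it was on deposited values without combined replicate 1 or 3 or with only siMYCN and siCtrl fitted. The rescaled siHAND2 and combined changes of SMS were −0.27 and −0.60. The median log2 change of the 4 synthesis genes was −0.65 in siMYCN, −0.46 in siHAND2 and −1.24 with both siRNAs, and −0.64, −0.30 and −0.89 on rescaled values.

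**Figure D2:**
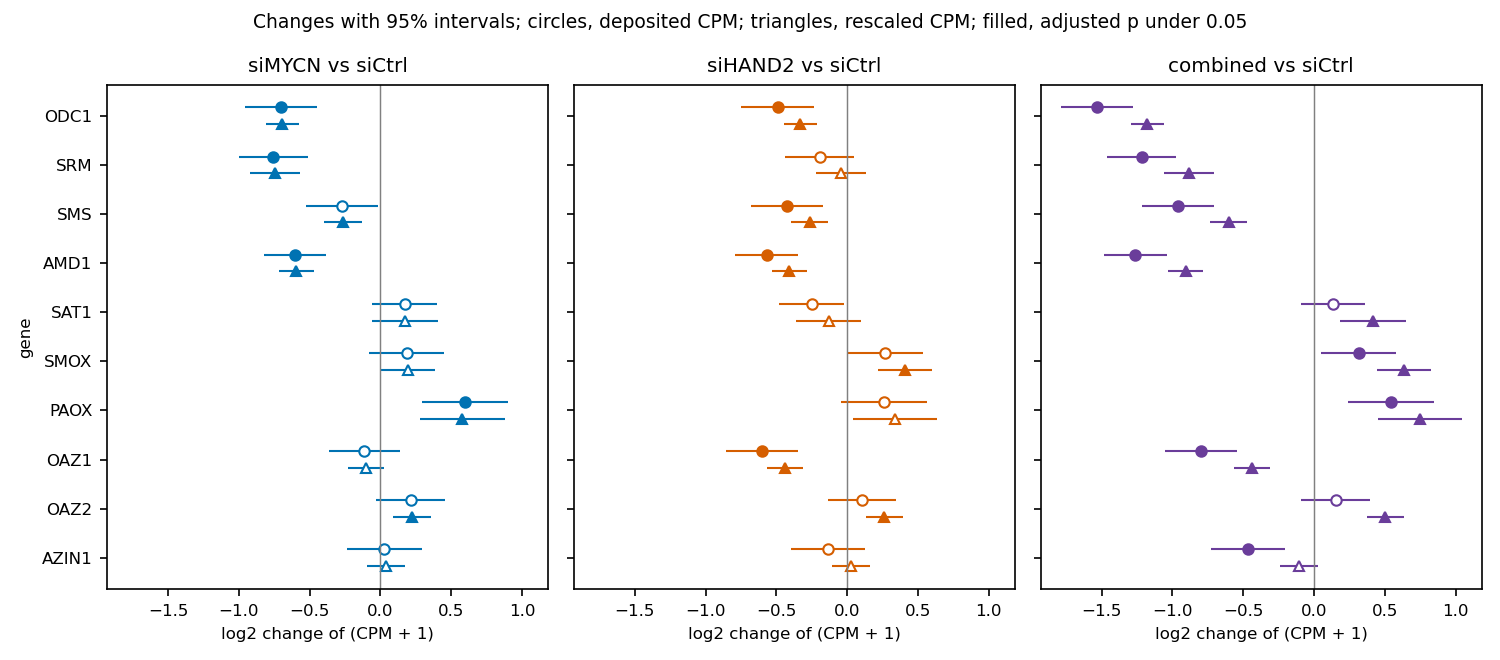
Log2 change of CPM + 1 against siCtrl for the 10 genes in each knockdown, with 95% intervals from limma; circles are deposited and triangles rescaled values, filled where the adjusted p was under 0.05. The synthesis genes lie left of 0 in all 3 panels, and OAZ2 and SAT1 in the combined knockdown are called on rescaled values and not on deposited ones.

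Of the breakdown enzymes, PAOX (chr10:135192741-135205201), a peroxisomal oxidase of acetylated polyamines, was close to the lower limit of the test. It measured 0.771, 1.14 and 0.802 CPM in siCtrl, 1.93, 2.32 and 1.44 CPM in siMYCN, 0.950, 1.38 and 1.52 CPM with the HAND2 siRNA, and 2.14, 1.94 and 1.29 CPM with both siRNAs. The siMYCN and combined samples lay above all siCtrl samples, and the siHAND2 samples overlapped them. PAOX rose by 0.60 (SE 0.15, limma adjusted p 0.0026) in siMYCN and by 0.54 (limma adjusted p 0.0022) in the combined knockdown, and by 0.58 and 0.75 rescaled. Its siCtrl mean of 0.905 CPM was under the minimum mean of 1 CPM, so it was tested because of its higher level in other groups. With no filter on low values its limma adjusted p was 0.048 in siMYCN and 0.032 in the combined knockdown. A level of 3 reads corresponds to between 0.047 and 0.095 CPM, by counting alone.

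SMOX (chr20:4129426-4168395), spermine oxidase, measured 6.80, 6.60 and 6.29 CPM in siCtrl, 8.60, 6.89 and 7.39 CPM in siMYCN, 7.85, 8.06 and 8.38 CPM with the HAND2 siRNA, and 10.9, 8.21 and 6.61 CPM with both siRNAs. The single knockdowns lay above siCtrl throughout, as did 31.4% of all tested genes in siMYCN and 17.8% in siHAND2. The lowest combined sample lay within the siCtrl range. On deposited values SMOX rose in the combined knockdown by 0.32 (SE 0.13, limma adjusted p 0.034), a call lost without combined replicate 1 (0.15, limma adjusted p 0.22), without combined replicate 2 and without each siCtrl sample in turn. It was also lost with no filter on low values (limma adjusted p 0.14) and with only the compared groups (limma adjusted p 0.059). Rescaled, the log2 change was 0.63 (limma adjusted p 1.6e-05) in the combined knockdown. In siHAND2 it was 0.27 (limma adjusted p 0.099) on deposited and 0.41 (limma adjusted p 0.0016) on rescaled values. In siMYCN it was 0.19 on both and not called (limma adjusted p 0.29 deposited and 0.090 rescaled). After rescaling to the sum over listed genes it was called there (0.24, limma adjusted p 0.046).

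SAT1 (chrX:23801275-23804341) encodes the acetyltransferase that limits the rate of polyamine breakdown. Its level was low: 3.19, 2.76 and 3.21 CPM in siCtrl, 3.27, 3.68 and 3.74 CPM in siMYCN, 2.47, 2.30 and 2.45 CPM with the HAND2 siRNA, and 3.27, 3.60 and 3.46 CPM with both siRNAs. The siHAND2 samples lay below all others and the siMYCN and combined samples above siCtrl, yet none of these differences from siCtrl was called on deposited values (log2 changes 0.17, −0.25 and 0.13, limma adjusted p 0.25, 0.071 and 0.29). The siHAND2 change was called lower with no filter (limma adjusted p 0.038), with only the compared groups, and without combined replicate 1 or 3. On rescaled values it was −0.13 and not called (limma adjusted p 0.33), and the siHAND2 samples overlapped siCtrl. The combined knockdown was called higher on rescaled values (0.41, limma adjusted p 0.0033). SAT1 was lower with the HAND2 siRNA alone than in the other knockdowns on deposited values. The combined knockdown exceeded siHAND2 by 0.38 (limma adjusted p 0.0077) and siMYCN exceeded siHAND2 by 0.42 (limma adjusted p 0.0045).

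OAZ1 (chr19:2269485-2273488), antizyme 1, measured 245, 222 and 250.1 CPM in siCtrl, 232, 216 and 215 CPM in siMYCN, 162, 160.5 and 149 CPM with the HAND2 siRNA, and 167, 132 and 117 CPM with both siRNAs. The siMYCN samples overlapped siCtrl, and both groups given the HAND2 siRNA lay below them. OAZ1 fell by 0.60 (SE 0.12, limma adjusted p 3.2e-04) in siHAND2 and by 0.80 (limma adjusted p 3.2e-06) in the combined knockdown, with −0.44 for each after rescaling. In siMYCN the log2 change was −0.11 (95% interval −0.37 to 0.14, limma adjusted p 0.52).

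OAZ2 (chr15:64979773-64995481), antizyme 2, measured 40.8, 37.3 and 38.1 CPM in siCtrl, 45.4, 45.9 and 43.8 CPM in siMYCN, 46.7, 41.2 and 37.8 CPM with the HAND2 siRNA, and 48.1, 45.7 and 36.5 CPM with both siRNAs. The siMYCN samples lay above siCtrl, and the other two knockdowns overlapped it. No change was called on deposited values (log2 0.21, 0.11 and 0.15), and all 3 were called higher after rescaling (0.22, 0.26 and 0.51, limma adjusted p 0.0089, 0.0028 and 4.2e-06). Without combined replicate 3 the deposited changes in siMYCN and the combined knockdown were called too (0.21 and 0.27).

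AZIN1 (chr8:103838530-103876429), the antizyme inhibitor, measured 263, 266 and 276 CPM in siCtrl, 259, 293 and 271 CPM in siMYCN, 248, 252 and 234 CPM with the HAND2 siRNA, and 239.7, 195 and 156 CPM with both siRNAs. It fell in the combined knockdown by 0.47 (SE 0.13, limma adjusted p 0.0025) on deposited values, and the rescaled log2 change of −0.11 was not called (limma adjusted p 0.14). On deposited values the siMYCN samples overlapped siCtrl, and the siHAND2 and combined samples lay below siCtrl and overlapped each other. The siHAND2 change was not called on deposited (log2 −0.14, limma adjusted p 0.41) or rescaled values (0.02, limma adjusted p 0.77). After rescaling, the siHAND2 samples lay within the siCtrl range. Within the combined knockdown, deposited AZIN1 was highest in the sample with the highest share of reads in listed genes and lowest in that with the lowest. The same order held for all of the 10 genes but SAT1.

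Counted over the 10 genes, 3 were called lower and 1 higher in siMYCN, where 16.3% of all tested genes were called lower and 17.4% higher. In siHAND2, 4 were lower and 0 higher, against 30.4% and 12.3% of all genes. In the combined knockdown 6 were lower and 2 higher, PAOX among these as in siMYCN, against 50.1% and 17.4%, so the count of falls among the 10 lay near the share of all genes. On rescaled values the counts were 4 lower and 2 higher in siMYCN (22.5% and 25.4% of all genes), 4 and 2 in siHAND2 (24.9% and 25.9%), and 5 and 4 in the combined knockdown (33.0% and 37.7%). By role, the 4 synthesis genes were all called lower in the combined knockdown on both scales. The 3 breakdown genes were not called lower against siCtrl on either, with the exception of SAT1 under the settings named above. Among the antizyme genes in the combined knockdown, OAZ1 was lower on both scales, AZIN1 lower on deposited values alone and OAZ2 higher on rescaled values alone. A difference between the roles was not tested.

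Ratios of 2 genes within a sample do not depend on the scaling. The ODC1 to OAZ1 ratio was 1.51, 1.65 and 1.55 in siCtrl, 1.02, 1.05 and 1.06 in siMYCN, 1.67, 1.72 and 1.69 with the HAND2 siRNA, and 0.950, 0.951 and 0.914 with both siRNAs. The 4 groups did not overlap, and the ratio stood at 0.664 times siCtrl in siMYCN, 1.08 times in siHAND2 and 0.598 times in the combined knockdown. The ODC1 to OAZ2 ratio fell from a mean of 9.68 ± 0.55 (SD, n = 3) in siCtrl to 5.11 ± 0.15, 6.38 ± 0.50 and 2.99 ± 0.28 in siMYCN, siHAND2 and the combined knockdown. The AZIN1 to OAZ1 ratio was 1.13 ± 0.07 in siCtrl, 1.24 ± 0.12 in siMYCN, 1.56 ± 0.02 in siHAND2 and 1.42 ± 0.07 with both siRNAs, and the siMYCN samples overlapped siCtrl.

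The ODC1 to AZIN1 ratio was 1.40 ± 0.02 in siCtrl, 0.841 ± 0.069 in siMYCN, 1.09 ± 0.01 in siHAND2 and 0.663 ± 0.020 with both siRNAs, with no overlap between groups. The ODC1 to SAT1 ratio, synthesis set against breakdown, was 123 ± 8.54 in siCtrl, 64.7 ± 6.14 in siMYCN, 111 ± 8.87 in siHAND2 and 38.1 ± 9.24 with both siRNAs, and the siHAND2 samples overlapped siCtrl. The SRM to SMS ratio was 0.168 ± 0.010, 0.117 ± 0.009, 0.198 ± 0.036 and 0.134 ± 0.011 in the same order, with siHAND2 overlapping siCtrl. The AMD1 to ODC1 ratio varied least, at 0.426 ± 0.011, 0.455 ± 0.003, 0.403 ± 0.016 and 0.514 ± 0.053. With 3 samples against 3, the exact permutation test cannot go below a two-sided p of 0.1, which 17 of these 21 comparisons with siCtrl reached (Benjamini-Hochberg adjusted exact p 0.12). The other 4 gave an exact p of 0.2.

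**Figure D3:**
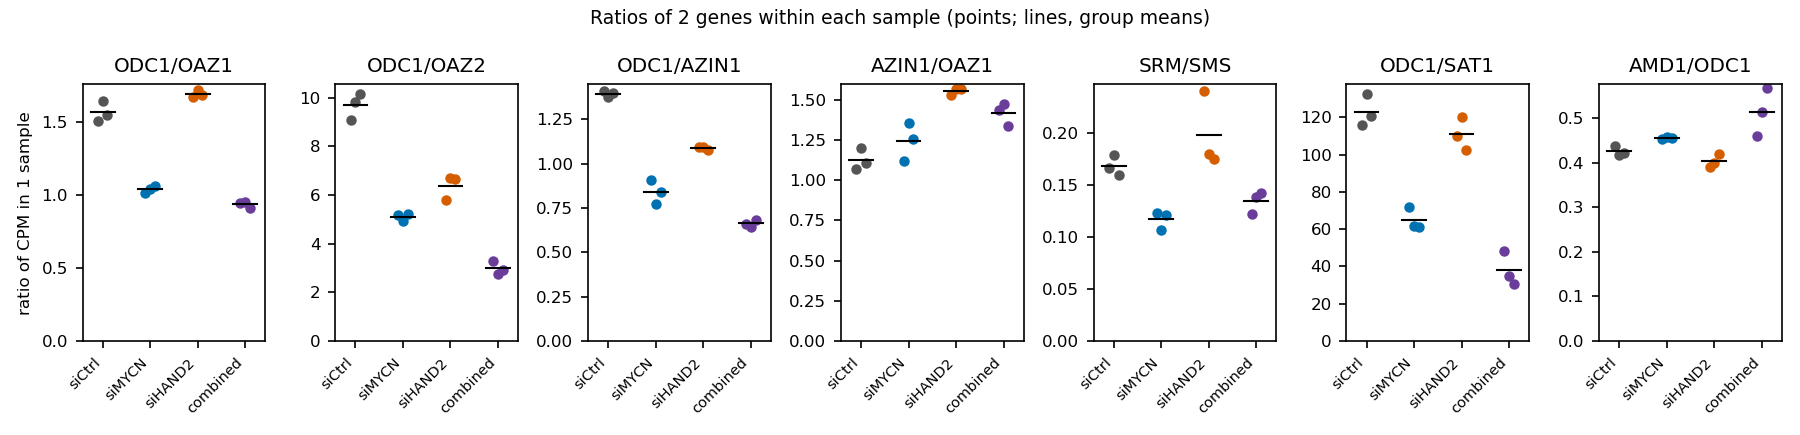
Ratio of the CPM of 2 genes in each sample (points) with group means (lines), on linear axes from 0. ODC1 to OAZ1 is lowest in siMYCN and the combined knockdown and highest in siHAND2, at 1.67 to 1.72.

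Between the single knockdowns, 1 of the 10 genes was called lower in siMYCN than in siHAND2 and 2 higher, where 8.98% and 26.1% of all genes were. SRM was lower with the MYCN siRNA by 0.56 (SE 0.12, limma adjusted p 6.0e-04, 0.70 rescaled), and OAZ1 (0.49, limma adjusted p 0.0030) and SAT1 were higher. With the replicate number as a block, PAOX was called higher in siMYCN as well (0.34, limma adjusted p 0.042, against 0.076 without the block). On rescaled values 3 were lower and 2 higher, against 22.2% and 22.4% of all genes, with ODC1 (−0.36, limma adjusted p 9.7e-05) and AMD1 (−0.18, limma adjusted p 0.017) added to the lower ones. The ODC1 to OAZ1 ratio in siMYCN was 0.614 times that in siHAND2 and the SRM to SMS ratio 0.597 times, both with an exact permutation p of 0.1.

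Adding the HAND2 siRNA to the MYCN siRNA lowered 6 of the 10 genes (combined against siMYCN, with 50.0% of all genes lower and 8.92% higher). These were ODC1 (−0.83), SMS (−0.68), OAZ1 (−0.68), AMD1 (−0.66), AZIN1 (−0.49) and SRM (−0.46), and none was higher. On rescaled values 4 were lower and 2 higher, against 26.6% and 30.0% of all genes: ODC1 (−0.48), SMS (−0.34), OAZ1 (−0.33) and AMD1 (−0.31) were lower, SMOX (0.44) and OAZ2 (0.28) higher, and SRM was at −0.14 (limma adjusted p 0.17). The deposited log2 change of OAZ2 in this comparison was −0.06 (limma adjusted p 0.68), so its direction turned with the scaling. MYCN itself was lower in the combined knockdown than in siMYCN on deposited values (−0.51, limma adjusted p 7.0e-04). Its mean was 482 against 682 CPM, or 561 against 625 after rescaling. The part of this difference in MYCN in the falls of the other genes was not tested.

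Adding the MYCN siRNA to the HAND2 siRNA lowered 5 genes and raised 1 (combined against siHAND2, with 31.5% of all genes lower and 8.75% higher). The falls were of ODC1 (−1.04), SRM (−1.02), AMD1 (−0.70), SMS (−0.53) and AZIN1 (−0.33, limma adjusted p 0.041), and the rise was of SAT1. The AZIN1 call was lost without each sample in turn, combined replicate 1 excepted (limma adjusted p 0.052 to 0.15). On rescaled values the 4 synthesis genes were lower and 4 genes higher (SAT1 0.55, PAOX 0.41, OAZ2 0.24, SMOX 0.23), against 23.6% and 26.1% of all genes. OAZ1 stood at −0.19 (limma adjusted p 0.21) and at 0.00 rescaled (limma adjusted p 0.96).

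The interaction term asks whether the combined change departs from the sum of the single ones. For ODC1 the single changes summed to −1.19 and the combined change was −1.53, and on rescaled values −1.03 and −1.18. For AMD1 the pair was −1.17 and −1.26 (rescaled −1.001 and −0.91), for SRM −0.95 and −1.22 (rescaled −0.79 and −0.88), and for SMS −0.70 and −0.96 (rescaled −0.53 and −0.60). No interaction of the 10 genes was called by limma on either scale, with adjusted p from 0.246 to 0.791 on deposited and 0.16 to 0.91 on rescaled values, and 0 and 1 of them had an unadjusted p under 0.05. The terms ran from −0.36 to 0.21 on deposited values, 9 of 10 negative, and from −0.17 to 0.37 on rescaled values, 5 negative and 5 positive. Their median was −0.21 on deposited values, near the median of −0.18 over all tested genes. On rescaled values these medians were −0.025 and −0.009. Of all genes, 3.65% had a called negative and 0.355% a called positive interaction (rescaled, 4.47% and 1.67%). Without combined replicate 1, which had the highest share of reads in listed genes, 3 genes were called on deposited values, ODC1 (−0.49, limma adjusted p 0.0095), SMS (−0.41, limma adjusted p 0.018) and AZIN1 (−0.51, limma adjusted p 0.012). The shares of all genes given above belong to the fit of all samples. That of the fit without this sample is not given, so the count of 3 cannot be set against all genes.

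The wider pathway was followed through 25 further genes, of which 19 had a mean of at least 1 CPM. OAZ3, AZIN2, SATL1, ARG1, AGMAT and ATP13A4 did not and were not tested. In siMYCN 8 of the 19 were called lower and 1 higher, in siHAND2 11 and 2, and in the combined knockdown 17 and 2. Of all tested genes, 16.3% and 17.4%, 30.4% and 12.3%, and 50.1% and 17.4% were. The median log2 changes of the 19 were −0.32, −0.33 and −0.77, and those of all genes 0.01, −0.14 and −0.28. On rescaled values the counts were 13 and 1, 10 and 2, and 12 and 2, where 22.5% and 25.4%, 24.9% and 25.9%, and 33.0% and 37.7% of all genes were called. The medians of the 19 were then −0.31, −0.17 and −0.42, and those of all genes 0.01, 0.01 and 0.04.

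The methionine genes supply S-adenosylmethionine and recycle the methylthioadenosine left by each aminopropyl transfer. Of these 7 genes, 6 fell in siMYCN, 7 in siHAND2 and 7 with both siRNAs, where 16.3%, 30.4% and 50.1% of all genes were called lower. On rescaled values 6, 6 and 7 fell, against 22.5%, 24.9% and 33.0%. MTAP, the phosphorylase that opens the salvage, had the lowest log2 change of the wider genes in every knockdown. It measured 32.7, 36.8 and 31.9 CPM in siCtrl, 15.2, 16.3 and 14.9 CPM in siMYCN, 12.5, 13.1 and 11.4 CPM with the HAND2 siRNA, and 5.13, 3.55 and 2.73 CPM with both siRNAs. The groups did not overlap. MTAP fell, with log2 changes of −1.08, −1.39 and −2.88 (limma adjusted p 8.7e-07, 7.7e-09 and 3.0e-15), and −1.06, −1.23 and −2.58 rescaled. ENOPH1, APIP, MRI1 and MAT2B, further steps of salvage and the regulatory subunit of S-adenosylmethionine synthesis, fell in all 3 knockdowns on both scales, with combined log2 changes of −0.98, −0.84, −0.55 and −0.77 (rescaled −0.63, −0.51, −0.25 and −0.42). ADI1 was the exception in siMYCN at 0.12 (limma adjusted p 0.48).

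In the hypusine pathway, spermidine is used to modify the translation factor EIF5A. EIF5A measured 321, 309 and 311 CPM in siCtrl, 208, 199.5 and 193 CPM in siMYCN, 248, 231 and 206 CPM with the HAND2 siRNA, and 135, 116 and 90.7 CPM with both siRNAs, with no overlap of siCtrl with the others. EIF5A fell, with log2 changes of −0.65, −0.46 and −1.47 (limma adjusted p 3.1e-04, 0.0048 and 1.9e-10), and −0.64, −0.30 and −1.11 rescaled. A near copy, EIF5AL1, is listed with a mean of 2.12 CPM. DOHH, the second hypusine enzyme, fell in siMYCN (−0.35, rescaled −0.34) and the combined knockdown (−0.67, rescaled −0.39), and DHPS, the first, fell by 0.30 in the combined knockdown on deposited values while its rescaled change was 0.05 (limma adjusted p 0.57).

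Among transport genes, ATP13A2, a lysosomal polyamine exporter, rose in all 3 knockdowns on both scales among genes above the minimum level. It measured 10.5, 10.98 and 10.8 CPM in siCtrl, 16.2, 14.9 and 14.9 CPM in siMYCN, 18.5, 16.0 and 13.8 CPM with the HAND2 siRNA, and 23.0, 18.1 and 13.9 CPM with both siRNAs, all above siCtrl. Its log2 changes were 0.47, 0.53 and 0.69 (limma adjusted p 0.0085, 0.0026 and 7.9e-05), and 0.48, 0.68 and 1.03 rescaled. ATP13A3, a related transporter, fell in the combined knockdown (−0.91, rescaled −0.55) and in siHAND2 (−0.32, rescaled −0.17). In siMYCN ATP13A3 was called lower on rescaled values (−0.25, limma adjusted p 0.0037) and not on deposited ones (−0.26, limma adjusted p 0.089). With the replicate block the deposited change was called there too (limma adjusted p 0.048). SAT2, a relative of SAT1, rose in siHAND2 (0.29, rescaled 0.44) and the combined knockdown (0.49, rescaled 0.83). Of the genes that supply arginine and ornithine, OAT fell in siHAND2 (−0.62, rescaled −0.47) and the combined knockdown (−0.99, rescaled −0.64). In siMYCN OAT was called lower on rescaled values (−0.23, limma adjusted p 0.014) and not on deposited ones (−0.24, limma adjusted p 0.16). ARG2 fell in siHAND2 (−0.42, rescaled −0.27), and in the combined knockdown it fell on deposited values (−0.52) and was not called on rescaled ones (−0.20, limma adjusted p 0.064). In siMYCN ARG2 was called lower on rescaled values (−0.31, limma adjusted p 0.011) and not on deposited ones (−0.32, limma adjusted p 0.051). With the replicate block on deposited values, ARG2 (limma adjusted p 0.026) and SLC7A1, an arginine carrier (−0.34, limma adjusted p 0.019), were called lower in siMYCN. Several deposited calls of the wider genes were lost when 1 of several samples was left out: DOHH and MAT2B in siMYCN, SAT2, MAT2A and ATP13A3 in siHAND2, and DHPS, SLC3A2 and SLC18B1 in the combined knockdown. With no filter on low values, the calls of ATP13A2 in siMYCN (limma adjusted p 0.10) and siHAND2 (limma adjusted p 0.054) and of ARG2 in siHAND2 (limma adjusted p 0.062) were lost, as were those of DOHH in siMYCN, SAT2 and ATP13A3 in siHAND2, and DHPS and SLC3A2 in the combined knockdown.

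**Figure D4:**
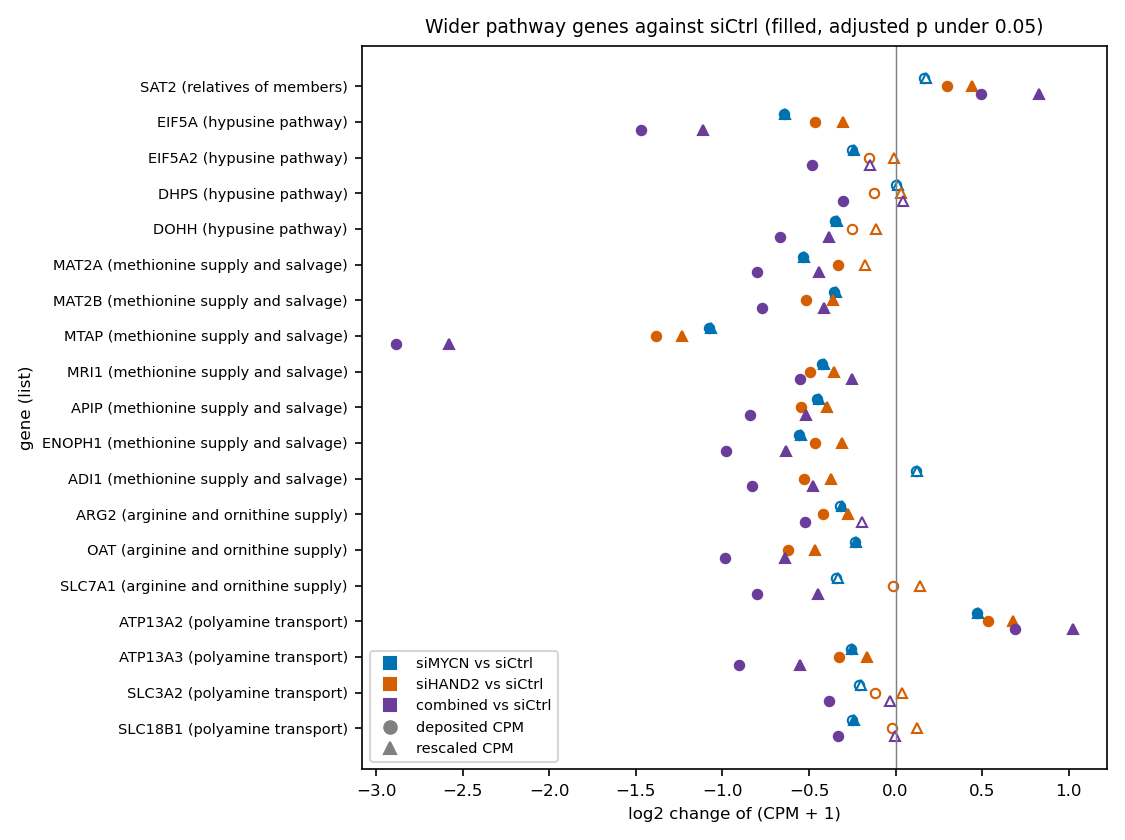
Log2 change of CPM + 1 against siCtrl for the 19 wider pathway genes that were tested, by knockdown (colour) and scale (circles deposited, triangles rescaled), filled where the limma adjusted p was under 0.05. MTAP lies farthest left in every knockdown, reaching −2.88, and SAT2 and ATP13A2 are the genes with filled points right of 0.

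The genes whose rescaled level followed ODC1 most closely over the 12 samples were HSPD1 (Pearson r 0.995), AEN (0.994) and PAICS (0.993), and for SAT1 they were ATG12 (0.938), MARCH7 (0.932) and MGST3 (0.932). The 12 samples share 4 group means, so these are descriptions without a test.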

How the data were processed

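Libraries from total RNA of IMR32 cells were made with Illumina protocols, per the labels. The authors deposited CPM values for 27514 genes, with a constant of 0.0001 in every value. STAR 2.5.1 and Partek are named with build hg19 (GRCh37), per the submitters' processing notes. The counting tool, its use of strand and the annotation are not given in the sources used here. Samples were grouped by their siRNA labels. Of values below 20 reads by the estimated step, 88.7 to 90.6% were whole within 0.05, too few to recover counts. Depth was 31.6 to 64.2 M reads, of which 18.2 to 37.5 M lay in listed genes. The level of 3 reads covers counting error only, and limma's intervals cover the spread between samples.

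Genes whose CPM averaged 1 or more (12680) were fitted as log2(CPM + 1), which understates changes of low genes, with limma 3.58.1 in R 4.3.3 (4 group means, mean-variance trend, 8 residual degrees of freedom, two-sided, Benjamini-Hochberg over all tested genes, threshold 0.05). For rescaling, a sample's factor was the median, over genes averaging 5 CPM or more, of its ratio to the geometric mean of the 12 samples. All 10 genes passed the filter, PAOX with a siCtrl mean under 1. Ratios were compared by exact permutation. Other settings were a pseudocount of 0.1, other filters, no trend, the compared groups alone, the replicate block and each sample left out. The comparison of siMYCN with siHAND2 was added after the others.

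The members and lists were chosen with earlier results of these data known. Named genes are the 10, the targeted genes, wider list genes, and the 3 genes nearest ODC1 and SAT1. Same-numbered samples deviated together in every pair between siCtrl and siMYCN (correlation of deviations 0.147 to 0.44) and between siMYCN and siHAND2 (0.137 to 0.33). They did not do so in every pair of the other groups. With 3 samples per group, these correlations cannot show whether the numbers pair the samples of those other groups.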

Additional observations from a re-analysis of the deposited data

Results flagged for a closer look

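MRI1, which encodes an isomerase of methionine salvage, had a positive interaction on rescaled values, 0.52 on the log2 scale (limma adjusted p 0.037): its combined change of −0.25 was smaller than the sum of its single changes, −0.77. On deposited values the interaction was 0.37 (limma adjusted p 0.18), with a combined change of −0.55 against a sum of −0.92. The difference is called on 1 of the 2 scales, and its relation to the share of reads in listed genes was not tested.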

How the results depend on the processing

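In siMYCN against siCtrl 4 of the 10 genes were called, 6 with only the compared groups fitted, 6 after median-ratio rescaling and 7 after rescaling to the sum over listed genes. Of all genes, 16.3% were called lower and 17.4% higher, and 22.5% and 25.4% after median-ratio rescaling. In siHAND2 against siCtrl 4 were called, 6 with only the compared groups fitted, 6 after rescaling and 7 after rescaling with the replicate block. There 30.4% of all genes were lower and 12.3% higher, and 24.9% and 25.9% after rescaling. In siMYCN against siHAND2 3 were called, 5 after rescaling, 5 after rescaling with the replicate block, and 6 when only the compared groups were fitted, and leaving out 1 sample gave 3 to 5, the highest without combined replicate 3. Leaving out 1 sample gave 0 to 3 called interactions, 3 without combined replicate 1. Against siCtrl, leaving out 1 sample gave 4 to 6 called genes in siMYCN, 4 to 6 in siHAND2 and 7 to 9 in the combined knockdown. For settings other than the deposited and median-ratio rescaled fits, the share of all genes called is not given. Counts under those settings, the replicate block among them, therefore cannot be set against all genes. Among the changes the report describes that were called on at least 1 scale, the direction turned for DHPS in the combined knockdown (against siCtrl −0.30, then 0.045 after rescaling with or without the replicate block and 0.036 after rescaling to the listed sum) and for OAZ2 between the combined knockdown and siMYCN (−0.06, then 0.28 with or without the block and 0.22). Over the 7 comparisons, OAZ2 was 1 of 44 such changes of the 10 genes, and of their 26 changes called on neither scale 9 turned sign on rescaling. In each case the cause was not tested.

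The replicate block on deposited values left 4, 4 and 8 of the 10 genes called against siCtrl in siMYCN, siHAND2 and the combined knockdown, the main counts, and 4 in siMYCN against siHAND2. Beside PAOX in that comparison and ARG2, SLC7A1 and ATP13A3 in siMYCN, it changed no call of the genes described. The exact tests of ratios cannot pass 0.05 at this sample size, so they say nothing about stability.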
